A study of Mus musculus with 8 samples.

Results

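The nutrient-sensing regulators of mTORC1 described here are 10 genes: *Mtor*, *Rptor*, *Tsc1*, *Tsc2*, *Rheb*, *Ddit4*, *Sesn1*, *Sesn2*, *Rragc* and *Rragd*. They were chosen by gene name, and all 10 were found among the 17167 genes of the table and passed the filter on low counts that left 14428 genes to test. The list was drawn up with results of the same AGX51 against vehicle contrast known, so fold changes and calls of these 10 genes are given as a description, without p values. No measured threshold entered the choice. Cells were undifferentiated spermatogonia (Aundiff), the germline population that holds the spermatogonial stem cells, from adult wild-type testes, for which the sample labels give the strain CBA/J and the supplemental procedures C57BL/6J. They were enriched with an antibody to CD9 and grown on mitotically inactivated mouse embryonic fibroblasts with GDNF, bFGF, EGF and insulin. Before treatment the feeder cells were depleted by attachment to plastic and the germ cells were plated on a basement membrane matrix. Cultures were then given DMSO as vehicle or 80 µM AGX51, a small molecule that inhibits the ID family of transcriptional regulators, for 20 h. The sample labels state this dose as 80 mM and the study as 80 µM. Each of 4 cultures, each from an individual mouse, gave 1 vehicle and 1 AGX51 library, so there were 4 libraries per group and 8 in all.

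mTORC1 is a kinase complex that couples protein synthesis and growth to nutrients, growth factors and stress. Amino acids bring it to the lysosome through Rag GTPases, which act as pairs of RagA or RagB with RagC or RagD, while RHEB, when bound to GTP, switches the kinase on there. The TSC complex turns RHEB off, and Sestrins and REDD1 lower mTORC1 activity when leucine is scarce or cells are stressed. In spermatogonia mTORC1 activity is associated with differentiation, and PLZF is known to oppose it there, in part through REDD1, the product of *Ddit4*.

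The libraries held 8330176 to 9586105 counts with vehicle and 4303318 to 8441399 with AGX51, and each of the 10 genes had 68 to 3001 counts in every library. Totals were lower with AGX51 in each culture. A two-sided exact permutation test, which ignored the pairing of libraries by culture, gave p = 0.0571, where a design of this size can reach 0.0286 at the least. A gene was called when the adjusted p of edgeR's quasi-likelihood test was under 0.05 and the fold change above 1.5; 8.57% of tested genes were called higher with AGX51, 9.93% lower and 18.5% in either direction. Of these calls 46.3% were higher, and 35.2% when libraries were scaled by their totals alone. Germ cell markers were detected in all libraries, with a summed level of 1336 to 1666 CPM (counts scaled to the library total) with vehicle and 721 to 1007 with AGX51, and 4 of 10 were called lower and 0 higher (exact permutation test of the sum, two-sided, p = 0.0286). Feeder fibroblast markers summed to 4556 to 7279 CPM with vehicle and 6263 to 11016 with AGX51, and 8 of 16 were called higher and 0 lower (p = 0.0857 in the same exact permutation test). These tests of marker sums also ignored the pairing. Within cultures, the germ cell sum was lower with AGX51 in each and the fibroblast sum higher in each. In bulk RNA, a change in the number of cells of a type and a change of marker RNA per cell cannot be told apart. The germ cell list includes *Gfra1*, which the study reports as lower with AGX51, and *Sall4* and *Ddx4*, which it reports as unaltered. Its sum is therefore not a measure of germ cell number, and the p values of the marker sums are given as a description. Of the markers of other testis cells, endothelial genes summed to 8.76 to 14.1 CPM with vehicle and 3.90 to 5.81 with AGX51, and Leydig cell genes, of which *Star* alone was listed, to 2.67 to 3.40 and 3.25 to 5.80. Sertoli cell markers summed to 31.5 to 43.7 CPM and 25.9 to 43.1, with *Amh*, *Cldn11* and *Fshr* not listed in the table, and the 2 listed macrophage markers to 43.7 to 104 and 40.9 to 102.

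Promoters are shown for 2 pairs of genes, each with 1 gene called and 1 not: *Tsc1* with its complex partner *Tsc2*, and the paralogs *Rragd* and *Rragc*. A difference in response within a pair was not tested. The RefSeq windows (GRCm38.p6, 250 bases before to 50 after the start site, 5′ to 3′ on the gene's strand) are at chr2:28640983-28641282 on the plus strand for *Tsc1*, chr17:24632578-24632877 on the minus strand for *Tsc2*, chr4:32982748-32983047 on the plus strand for *Rragd* and chr4:123917183-123917482 on the plus strand for *Rragc*. Capitals mark matches to TCACGTG, the core of the CLEAR element of lysosomal genes, or to CAGNTG, an E-box form, on either strand.
Tsc1: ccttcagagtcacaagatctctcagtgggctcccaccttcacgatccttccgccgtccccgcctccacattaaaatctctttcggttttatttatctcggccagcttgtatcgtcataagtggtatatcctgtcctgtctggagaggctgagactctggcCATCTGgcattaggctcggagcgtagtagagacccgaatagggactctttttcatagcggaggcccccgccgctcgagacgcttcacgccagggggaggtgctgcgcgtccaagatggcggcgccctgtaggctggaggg
Tsc2: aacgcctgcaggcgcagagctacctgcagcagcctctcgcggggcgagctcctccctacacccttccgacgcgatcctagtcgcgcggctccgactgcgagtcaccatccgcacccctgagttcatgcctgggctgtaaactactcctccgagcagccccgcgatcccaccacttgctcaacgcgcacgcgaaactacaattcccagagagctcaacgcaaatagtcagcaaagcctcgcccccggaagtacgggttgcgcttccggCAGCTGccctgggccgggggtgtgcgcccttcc
Rragd: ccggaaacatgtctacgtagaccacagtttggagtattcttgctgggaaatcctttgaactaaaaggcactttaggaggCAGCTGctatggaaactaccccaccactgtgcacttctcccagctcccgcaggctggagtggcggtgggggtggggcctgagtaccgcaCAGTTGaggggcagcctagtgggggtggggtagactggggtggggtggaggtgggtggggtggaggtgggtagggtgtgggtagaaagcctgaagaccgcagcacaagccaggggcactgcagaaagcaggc
Rragc: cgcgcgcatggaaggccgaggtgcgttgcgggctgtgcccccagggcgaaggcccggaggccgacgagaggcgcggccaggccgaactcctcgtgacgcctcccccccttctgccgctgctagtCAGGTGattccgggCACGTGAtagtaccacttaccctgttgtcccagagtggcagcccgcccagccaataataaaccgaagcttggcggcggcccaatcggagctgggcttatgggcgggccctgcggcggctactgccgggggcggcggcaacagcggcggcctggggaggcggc
The 10 genes matched 11 windows of 32851 in the table, *Sesn1* having 2. TCACGTG was found in windows of 2 of the 10 genes, *Rheb* and *Rragc*, against 3.77% of all windows, and began at -97 and -112 relative to the start site. CAGNTG was found in 5 of 10, against 51.4% of all windows, at -90 in *Tsc1*, 17 in *Tsc2*, -171 and -82 in *Rragd*, -126 in *Rragc*, and -212 and -99 in *Sesn2*. The wider E-box CANNTG, which contains every CAGNTG match and the centre of TCACGTG, was in 7 of 10 against 72.3%, and TGATGNAA, the core of the C/EBP-ATF response element, in 0 of 10 against 3.97%. The median GC content was 65.0% over the 11 windows, with a range of 41.7% in *Rptor* to 71.0% in *Sesn1*, against 52.7% over all windows. The *Rragd* window was poor in CpG for its base composition, with an observed to expected ratio of 0.246, while the other windows had 0.721 to 1.30.

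With vehicle, *Rheb* had the highest level of the 10 genes per exon length. Its level was 39.8 ± 3.09 CPM per kilobase of annotated exon (mean ± SD, n = 4 here and below), above every other gene in every vehicle library. *Rragd* (9.74 ± 1.80) and *Ddit4* (8.92 ± 0.920) followed, with overlapping libraries. *Rragc* (6.36 ± 0.651), *Sesn2* (5.48 ± 1.04), *Sesn1* (5.42 ± 0.289) and *Mtor* (5.30 ± 0.708) formed a group whose neighbours overlapped. *Tsc2* (3.56 ± 0.368), *Tsc1* (1.96 ± 0.0726) and *Rptor* (1.26 ± 0.110) were lowest and did not overlap with each other. With AGX51 the level of *Tsc1* (3.89 ± 0.354) overlapped with that of *Tsc2* (3.34 ± 0.367). Libraries were indexed at poly(A) priming and then tagmented, so counts come mainly from the 3′ end and need not scale with exon length. Coverage of exons was not tested, and the order per kilobase is not a measured order of transcript abundance. By CPM alone *Rheb* was still highest (307 ± 23.8), followed by *Mtor* (53.6 ± 7.16) and *Rragd* (50.4 ± 9.33). *Ddit4* was lowest by CPM (15.6 ± 1.62).

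Of the 10 genes, 2 were called higher with AGX51, *Tsc1* and *Rragd*, and 0 lower, beside 8.57% of all tested genes called higher. DESeq2 and limma-voom gave the same counts. At an unadjusted p under 0.05 in edgeR there were 6 higher and 1 lower. The share of all tested genes at that unadjusted threshold is not given here, so these 2 counts have no background to be set against. With no fold threshold 5 were higher, the others being *Sesn1*, *Sesn2* and *Rragc*, beside 15.2% of all genes, and with a fold change above 2 there was 1, *Tsc1*, beside 3.37%. CPM of the groups did not overlap, with AGX51 higher, for *Tsc1*, *Rragd* and *Sesn1*, beside 10.6% of all genes. The median log2 fold change of the 10 genes was 0.39 and that of all tested genes 0.00. Because the list was made with this contrast in view, nothing is read from these shares.

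**Figure D1:**
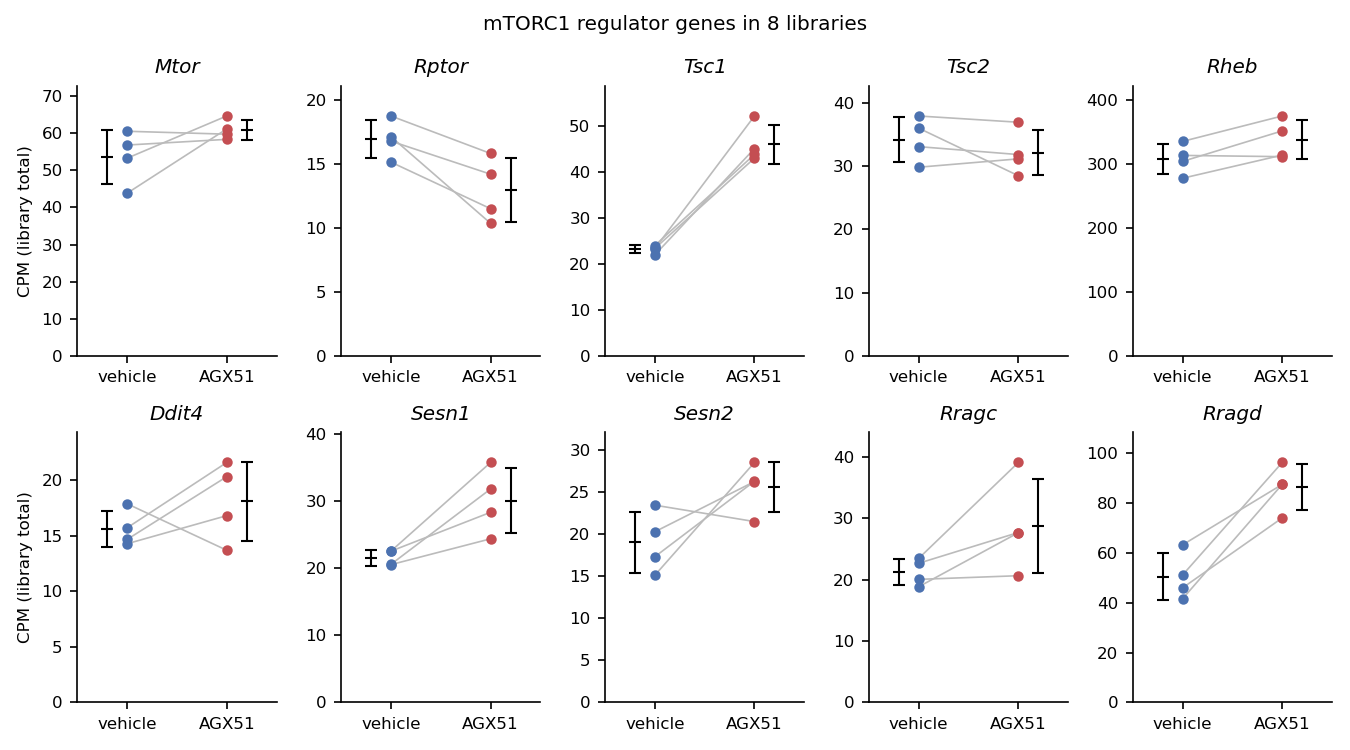
CPM (y axis) of the 10 mTORC1 regulator genes in 4 vehicle (blue) and 4 AGX51 (red) libraries, with lines joining libraries of a culture and bars for the mean ± SD. The groups stand apart for *Tsc1*, *Rragd* and *Sesn1* and overlap for the other 7 genes.

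The TSC complex and its target RHEB come first. *Tsc1* (ENSMUSG00000026812, chr2:28641228-28691167, plus strand, GRCm38) encodes hamartin, which stabilises the complex. Its level was 23.3, 22.0, 24.0 and 23.4 CPM in vehicle replicates 1 to 4 and 52.2, 45.1, 43.8 and 43.0 CPM in the AGX51 libraries of the same cultures. All AGX51 libraries lay far above all vehicle libraries. The mean was 23.2 ± 0.859 CPM with vehicle and 46.0 ± 4.19 with AGX51, a log2 fold change of 1.06 (SE 0.11), and it was higher in 4 of 4 cultures. *Tsc1* was also the steadiest of these genes between vehicle cultures: its coefficient of variation was 3.71%, below the 6.94% that counting alone would give on average. *Tsc1* was called under each of 21 alternative settings, with log2 fold changes of 0.84 at equal depth to 1.12.

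*Tsc2* (ENSMUSG00000002496, chr17:24595816-24632630, minus strand) encodes tuberin, the subunit that acts on RHEB. Its level was 33.1, 37.9, 36.0 and 29.8 CPM with vehicle and 31.8, 36.9, 28.5 and 31.2 with AGX51. The groups overlapped throughout, with means of 34.2 ± 3.54 and 32.1 ± 3.54 CPM and a log2 fold change of -0.02 (SE 0.11). It was lower in 3 of 4 cultures after TMM scaling, and its sign was not stable, with values of -0.10 to 0.05 over the alternatives. Exons of *Tsc2* share 693 bases (7.20%) with *Pkd1* on the other strand, and whether counting used strand is not stated in the sources used here. The ratio of *Tsc1* to *Tsc2* counts, which depends on no scaling between libraries, was 0.705, 0.579, 0.667 and 0.783 with vehicle and 1.64, 1.22, 1.54 and 1.38 with AGX51. *Tsc2* had more counts than *Tsc1* in all vehicle libraries and fewer in all AGX51 libraries.

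*Rheb* (ENSMUSG00000028945, chr5:24802823-24842624, minus strand), the GTPase that activates mTORC1, had 304, 335, 277 and 313 CPM with vehicle and 351, 375, 314 and 311 with AGX51. The groups overlapped, and the means were 307 ± 23.8 and 338 ± 30.8 CPM. The log2 fold change was 0.20 (SE 0.10), below the fold threshold. In culture 4 the direction turned with the scaling: the AGX51 library was lower than its vehicle partner in CPM and higher after TMM scaling. Scaling by library totals alone gave a log2 fold change of 0.14.

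**Figure D2:**
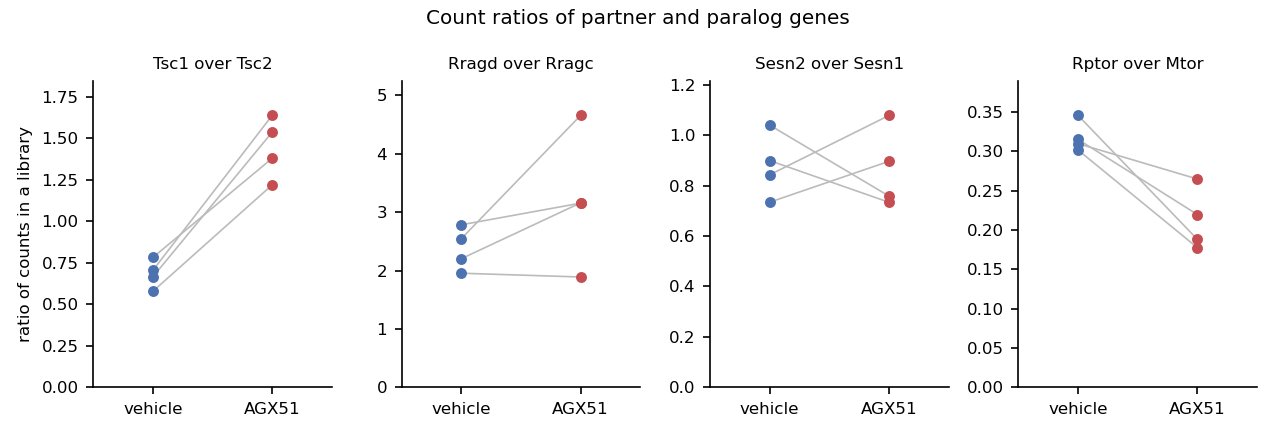
Ratios of the counts of 2 genes within a library (y axis) for 4 gene pairs, with vehicle libraries in blue, AGX51 libraries in red and lines joining libraries of a culture. The groups do not overlap for *Tsc1* over *Tsc2*, which is higher with AGX51, or for *Rptor* over *Mtor*, which is lower, and overlap for the other 2 pairs.

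Among the Rag GTPases, *Rragd* (ENSMUSG00000028278, chr4:32983037-33022180, plus strand) was the other gene called. It encodes RagD, and its level was 51.1, 41.5, 63.1 and 45.9 CPM with vehicle and 96.1, 87.4, 87.4 and 73.9 with AGX51. Every AGX51 library was above every vehicle library, although vehicle cultures differed from each other more than counting gives, with a coefficient of variation of 18.5% against 4.76%. The means were 50.4 ± 9.33 and 86.2 ± 9.17 CPM, a log2 fold change of 0.85 (SE 0.12), higher in 4 of 4 cultures. The call was lost under 1 of 21 alternatives, the fold threshold of 2, and the log2 fold change ranged from 0.77 to 0.97.

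*Rragc* (ENSMUSG00000028646, chr4:123917446-123936997, plus strand), which encodes the paralog RagC, had 20.1, 18.8, 22.7 and 23.5 CPM with vehicle and 20.6, 27.7, 27.7 and 39.1 with AGX51. The groups overlapped: AGX51 replicate 1 lay among the vehicle libraries, and AGX51 replicate 4 stood well above the rest. The means were 21.3 ± 2.17 and 28.8 ± 7.64 CPM, with a log2 fold change of 0.53 (SE 0.19) that was not called. It was 0.31 without AGX51 replicate 4, 0.37 without both libraries of culture 4, and 0.69 without AGX51 replicate 1 and 0.59 without AGX51 replicate 2, where it was called. Exons of *Rragc* share 264 bases (7.90%) with 4930535I16Rik on the other strand.

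AGX51 replicate 4, with the highest *Rragc*, also had the highest summed fibroblast marker level, 11016 CPM. With the mean log2 level of the fibroblast markers as a covariate the log2 fold change of *Rragc* was 0.03, while that of *Rragd* was 0.96 and that of *Tsc1* 1.08. Within the AGX51 group *Rragd* was lowest in the library with the highest fibroblast marker level, at 73.9 CPM, and highest in the library with the lowest, at 96.1 CPM. After TMM scaling the latter, AGX51 replicate 1, was level with AGX51 replicate 3 (95.2 and 95.3). The *Rragd* to *Rragc* count ratio was 2.55, 2.20, 2.78 and 1.96 with vehicle and 4.66, 3.16, 3.16 and 1.89 with AGX51. It was higher with AGX51 in cultures 1 to 3 and not in culture 4. The fibroblast marker sum was itself higher with AGX51 in every culture. The covariate fit therefore cannot tell a change with treatment from a change in feeder cells. The part of feeder cells in the *Rragc* values was not tested.

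**Figure D3:**
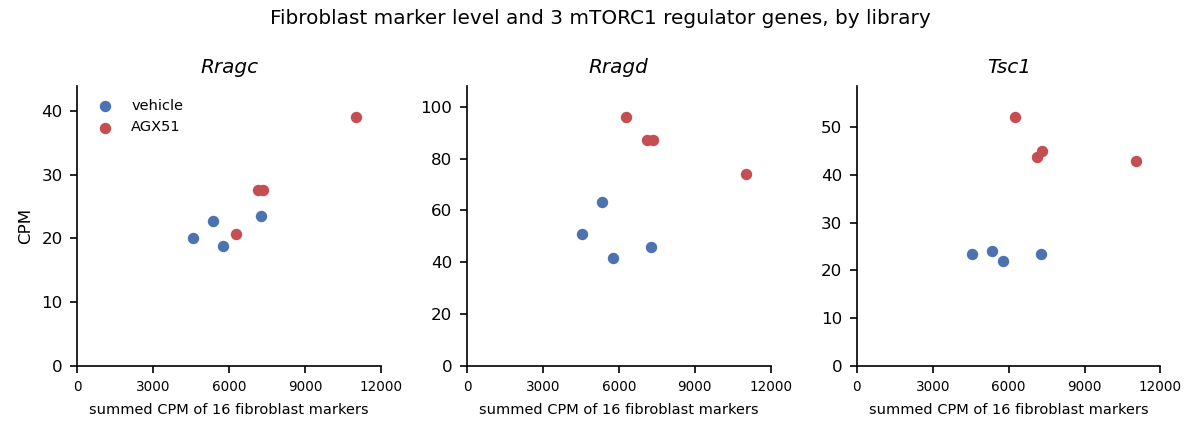
CPM of *Rragc*, *Rragd* and *Tsc1* (y axes) against the summed CPM of 16 fibroblast markers (x axis) in each library, vehicle in blue and AGX51 in red. The AGX51 library with the highest marker sum, 11016 CPM, has the highest *Rragc* (39.1 CPM) and the lowest *Rragd* (73.9 CPM) and *Tsc1* (43.0 CPM) of its group. After TMM scaling *Tsc1* was lowest in AGX51 replicate 2 instead (42.9, against 46.3 in AGX51 replicate 4).

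The 3 genes for stress-responsive inhibitors, *Sesn1*, *Sesn2* and *Ddit4*, were not called. *Sesn1* (ENSMUSG00000038332, chr10:41809935-41908424, plus strand) and *Sesn2* (ENSMUSG00000028893, chr4:132492032-132510501, minus strand) encode Sestrins, which bind GATOR2 and take part in leucine sensing. *Sesn1* had 20.6, 22.6, 22.6 and 20.6 CPM with vehicle and 31.8, 35.8, 28.4 and 24.4 with AGX51. All AGX51 libraries were above all vehicle libraries, with means of 21.6 ± 1.15 and 30.1 ± 4.86 CPM. Its log2 fold change of 0.54 (SE 0.12) fell short of the fold threshold, which is 0.58 on that scale. It passed at equal depth (0.61), without AGX51 replicate 4 (0.62), without culture 4 (0.60) and with the fibroblast covariate (0.68).

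*Sesn2* had 15.1, 20.3, 23.5 and 17.3 CPM with vehicle and 28.5, 26.3, 21.5 and 26.3 with AGX51. The groups overlapped through culture 3, whose vehicle library was the highest of its group and whose AGX51 library was the lowest. In that culture *Sesn2* was lower with AGX51 in CPM and slightly higher after TMM scaling, and in the other 3 cultures it was higher by both. The means were 19.0 ± 3.62 and 25.6 ± 2.96 CPM, and the log2 fold change was 0.51 (SE 0.14). It was 0.25 in a single random thinning of all libraries to equal depth and 0.62, past both thresholds, without vehicle replicate 3. The *Sesn2* to *Sesn1* count ratio ranged from 0.734 to 1.04 with vehicle and from 0.734 to 1.08 with AGX51, so the groups overlapped almost completely.

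*Ddit4* (ENSMUSG00000020108, chr10:59949669-59951834, minus strand), which encodes REDD1, had 14.7, 15.7, 17.9 and 14.3 CPM with vehicle and 20.3, 21.6, 13.7 and 16.8 with AGX51. It was higher in 3 cultures and lower in culture 3, where AGX51 gave the lowest CPM of all 8 libraries, though not the lowest level after TMM scaling. The means were 15.6 ± 1.62 and 18.1 ± 3.57 CPM and the log2 fold change 0.27 (SE 0.14), within 0.20 to 0.36 over the alternatives. *Ddit4* and *Sesn2* are known as targets of stress pathways that run through ATF4 or p53, and *Sesn1* of p53. Of 7 genes of the integrated stress response, 5 were called higher with AGX51 (71.4%, against 8.57% of all tested genes), all in 4 of 4 cultures. They were *Ddit3* by a log2 fold change of 3.27, *Trib3* by 3.30, *Atf4* by 1.79, *Asns* by 1.20 and *Ppp1r15a* by 1.05. The other 2 were not called: *Eif2ak3* was at 0.16 (SE 0.14), and *Eif2ak4* was at -0.48 (SE 0.11) and lower in 4 of 4 cultures. Of 9 genes of the p53 response, 1 was called higher (11.1%, near the share of all tested genes), *Bbc3* by 1.15, and 0 lower, and the median was -0.01. Both lists were chosen with earlier results of these data known, so nothing is read from these shares. The relation of either list to the Sestrins or *Ddit4* was not tested.

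Neither gene of the kinase core, *Mtor* or *Rptor*, was called. *Mtor* (ENSMUSG00000028991, chr4:148448611-148557683, plus strand) had 53.2, 60.5, 56.8 and 43.8 CPM with vehicle and 64.6, 59.7, 58.3 and 61.1 with AGX51. Its log2 fold change was 0.26 (SE 0.11), with means of 53.6 ± 7.16 and 60.9 ± 2.70 CPM. It was higher in 3 of 4 cultures, most so in culture 4, where the vehicle library was the lowest, and was 0.16 without that culture.

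*Rptor* (ENSMUSG00000025583, chr11:119602905-119899576, plus strand), which encodes the substrate-binding subunit Raptor, was the only one of the 10 genes that was lower with AGX51 in every culture. It had 16.8, 18.7, 17.1 and 15.1 CPM with vehicle and 14.2, 15.8, 10.3 and 11.5 with AGX51. The groups overlapped in CPM, because AGX51 replicate 2 was above vehicle replicate 4. After TMM scaling these 2 libraries were nearly equal, at 15.05 and 15.06, and the groups no longer overlapped. The means were 16.9 ± 1.48 and 13.0 ± 2.49 CPM, and the log2 fold change was -0.33 (SE 0.14), not called, and -0.19 with the fibroblast covariate. As a share of *Mtor* counts, *Rptor* was 0.315, 0.310, 0.301 and 0.345 with vehicle and 0.220, 0.265, 0.177 and 0.188 with AGX51. By this ratio, unlike by CPM, the groups did not overlap.

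**Figure D4:**
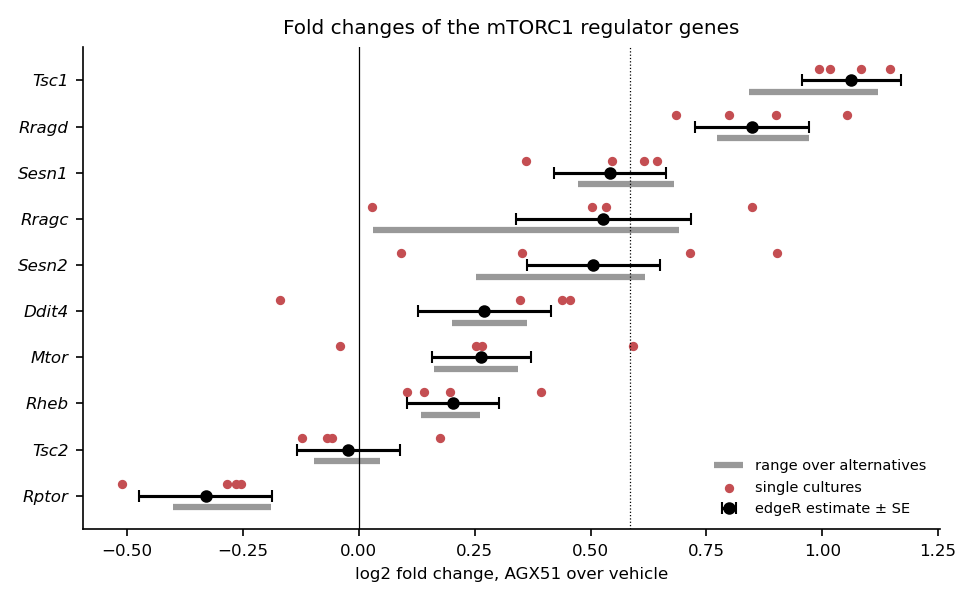
Log2 fold change (x axis) of the 10 genes: edgeR estimate ± SE in black, single cultures in red, and in grey the range over 21 alternative settings, with a dotted line at a fold change of 1.5. *Tsc1* and *Rragd* lie beyond the dotted line in all settings, *Rragc* has the widest grey range (0.03 to 0.69) and *Rptor* lies below 0.

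Of 87 other tested genes of the pathway, 9 were called higher and 6 lower, which is 10.3% and 6.90% and near the shares of all tested genes (8.57% and 9.93%). Their median log2 fold change was 0.07. These lists were also chosen with earlier results of these data known. Adjusted p values of their genes, here and below, are therefore given as a description, and nothing is read from the shares called. Of the other Rag GTPases and Ragulator 0 of 8 genes were called, and of GATOR1, GATOR2 and KICSTOR 0 of 11, by edgeR, DESeq2 or limma-voom. At an unadjusted p under 0.05 in edgeR 3 of the former were higher and 1 lower, and 2 of the latter higher and 3 lower, with no share of all tested genes to set beside them. Among the 8, and named after their values were seen, *Rragb*, which encodes RagB, was called higher without AGX51 replicate 4 (0.73) and *Lamtor3*, a Ragulator subunit, lower with the fibroblast covariate (-0.81). The smallest p values in these lists were for *Lamtor5*, a Ragulator subunit, at -0.34 (SE 0.09; edgeR quasi-likelihood test, Benjamini-Hochberg adjusted p = 0.00935; lower in 4 of 4 cultures), and *Mios*, of GATOR2, at -0.35 (SE 0.12; adjusted p = 0.0502). Of 10 other TOR complex subunits and assembly factors 1 was called, *Prr5l* of mTORC2, lower by -1.30 (SE 0.43; adjusted p = 0.0375), at 1.44 to 1.86 CPM with vehicle and 0.24 to 1.39 with AGX51. That call rested on 2 to 17 counts per library and was lost under 11 of 20 alternatives, among them the removal of any single library other than AGX51 replicate 2 (the smallest change being -0.98, without AGX51 replicate 4) and the fibroblast covariate (-0.72). DESeq2 called 0 genes of this list lower and limma-voom 2. Named after their values were seen, *Tti1* was at -0.57 (SE 0.13, adjusted p = 0.00470, lower in 4 of 4 cultures) and *Rictor* at 0.55 (SE 0.10, adjusted p = 0.00103, higher in 4 of 4). For both, the groups did not overlap and the change fell short of the fold threshold. *Tti1* was called lower by limma-voom (-0.59), and *Rictor* higher with the fibroblast covariate (0.66).

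The nutrient and energy sensors with called genes were FLCN, a CASTOR paralog and AMPK. In the list of other nutrient sensors and the FLCN complex, 2 of 8 genes were called higher (25%) and 1 lower (12.5%). The shares of all tested genes were 8.57% and 9.93%. FLCN with FNIP1 or FNIP2 is the GTPase-activating complex for RagC and RagD, and 2 of its genes were called higher. *Flcn* had 41.2, 52.5, 43.9 and 36.4 CPM with vehicle and 82.9, 78.1, 67.1 and 61.0 with AGX51, a log2 fold change of 0.80 (SE 0.12; adjusted p = 0.000299, higher in 4 of 4 cultures). *Fnip1* had 14.4, 17.8, 18.2 and 19.4 CPM with vehicle and 29.8, 30.2, 26.9 and 35.9 with AGX51, a change of 0.90 (SE 0.14; adjusted p = 0.000579, higher in 4 of 4). For both, the groups did not overlap. *Fnip2*, named after its values were seen, was at 0.44 (SE 0.14; adjusted p = 0.0329). It was higher in 4 of 4 cultures, with overlapping groups, and short of the fold threshold. In the same list of 8 genes 1 was lower, *Gatsl2*, the older symbol of the arginine-sensor paralog *Castor2*, at -0.76 (SE 0.20; adjusted p = 0.0112, lower in 4 of 4), which lost its call with the fibroblast covariate.

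The next list of 14 genes held the TSC partner, REDD2, the RHEB paralog, AMPK and the LKB1 complex, which acts on AMPK. Of these, 3 were called higher (21.4%) and 0 lower, against 8.57% and 9.93% of all tested genes. At an unadjusted p under 0.05 in edgeR there were 6 higher and 0 lower, with no share of all tested genes to set beside them. DESeq2 called 4 and 0, adding *Stradb* of the LKB1 complex (0.59), which is named after its values were seen. In edgeR *Stradb* was at 0.58 (SE 0.13, adjusted p = 0.00555, higher in 4 of 4 cultures), just under the fold threshold. AMPK is the energy sensor that phosphorylates TSC2 and Raptor. *Prkaa2*, a catalytic AMPK subunit, had 1.86, 1.32, 2.00 and 1.77 CPM with vehicle and 7.88, 6.51, 6.32 and 5.57 with AGX51, a log2 fold change of 1.97 (SE 0.23; adjusted p = 8.13e-05, higher in 4 of 4 cultures). It was low in all libraries but did not overlap between groups. *Prkab2*, a regulatory AMPK subunit, rose by 0.66 (SE 0.12; adjusted p = 0.00158, higher in 4 of 4), and was at 0.58, just under the fold threshold, without vehicle replicate 3. *Ddit4l*, which encodes REDD2, was at 0.70 (SE 0.24; adjusted p = 0.0439, higher in 4 of 4), with overlapping groups, and at 0.01 with the fibroblast covariate. Leaving out 1 library also ended the call in 5 cases (vehicle replicates 1, 2 and 3, and AGX51 replicates 3 and 4), with 0.46 in the last of these as the smallest value.

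Of 16 genes listed under the insulin and PI3K-AKT input, 1 was called higher (6.25%) and 2 lower (12.5%), against 8.57% and 9.93% of all tested genes. *Rps6ka1*, which was placed in this list, encodes RSK1, a kinase of the ERK pathway. It was at 28.0 to 34.5 CPM with vehicle and 12.8 to 20.2 with AGX51, a log2 fold change of -0.98 (SE 0.15; adjusted p = 0.000341, lower in 4 of 4 cultures). *Pik3r1*, which encodes a regulatory subunit of PI3K, was at 12.9 to 17.3 and 6.18 to 9.99 CPM, a change of -0.93 (SE 0.17; adjusted p = 0.00136, lower in 4 of 4). *Akt2* was higher by 0.70 (SE 0.15; adjusted p = 0.00331, higher in 4 of 4), and its call was lost with the fibroblast covariate (0.48) and without AGX51 replicate 4 (0.56). Exons of *Rps6ka1* share 247 bases with *Gm12977* on the other strand.

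Among 18 substrates and effectors of mTORC1, 3 were called higher (16.7%) and 2 lower (11.1%), against 8.57% and 9.93% of all tested genes. *Eif4ebp1*, which encodes the translation repressor 4E-BP1, had 466, 490, 406 and 521 CPM with vehicle and 884, 892, 872 and 1101 with AGX51. The groups were well separated, with a log2 fold change of 1.07 (SE 0.14; adjusted p = 0.000132, higher in 4 of 4 cultures). *Lpin1*, a lipid phosphatase that mTORC1 phosphorylates, was at 22.6 to 32.7 CPM with vehicle and 49.0 to 69.0 with AGX51, a change of 1.10 (SE 0.12; adjusted p = 5.33e-05, higher in 4 of 4). Of the related lysosomal transcription factors, *Tfeb* was called lower, *Mitf* higher, and *Tfe3*, named after its values were seen, was at 0.05 (SE 0.14; adjusted p = 0.804). *Tfeb* had 6.35, 4.68, 6.45 and 6.36 CPM with vehicle and 3.78, 2.79, 2.55 and 3.44 with AGX51 (log2 fold change -0.84, SE 0.23, adjusted p = 0.0136, lower in 4 of 4), while *Mitf* had 0.77, 1.56, 2.00 and 2.29 and then 3.78, 3.25, 2.15 and 3.44 (0.99, SE 0.33, adjusted p = 0.0376, higher in 4 of 4). The *Mitf* groups overlapped, on 7 to 29 counts per library, and its call was lost under 9 of 20 alternatives, among them the removal of any single library other than vehicle replicate 4 and AGX51 replicate 3 (0.76 to 1.09). *Ulk2*, an autophagy kinase, was lower by -0.65 (SE 0.20; adjusted p = 0.0266, lower in 4 of 4), a call lost under 7 of 21 alternatives, among them the removal of vehicle replicate 3, vehicle replicate 4, AGX51 replicate 2 and AGX51 replicate 3, each alone (-0.65 to -0.51).

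Neither gene listed as a regulator of mTORC1 in spermatogonia was called by edgeR, DESeq2 or limma-voom. *Zbtb16*, which encodes PLZF and is also among the germ cell markers, was lower in 4 of 4 cultures, at -0.49 (SE 0.11; adjusted p = 0.00389), short of the fold threshold. *Tsc22d3*, which encodes GILZ and is named here after its values were seen, was at 0.07 (SE 0.09; adjusted p = 0.594) and higher in 2 of 4 cultures.

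**Figure D5:**
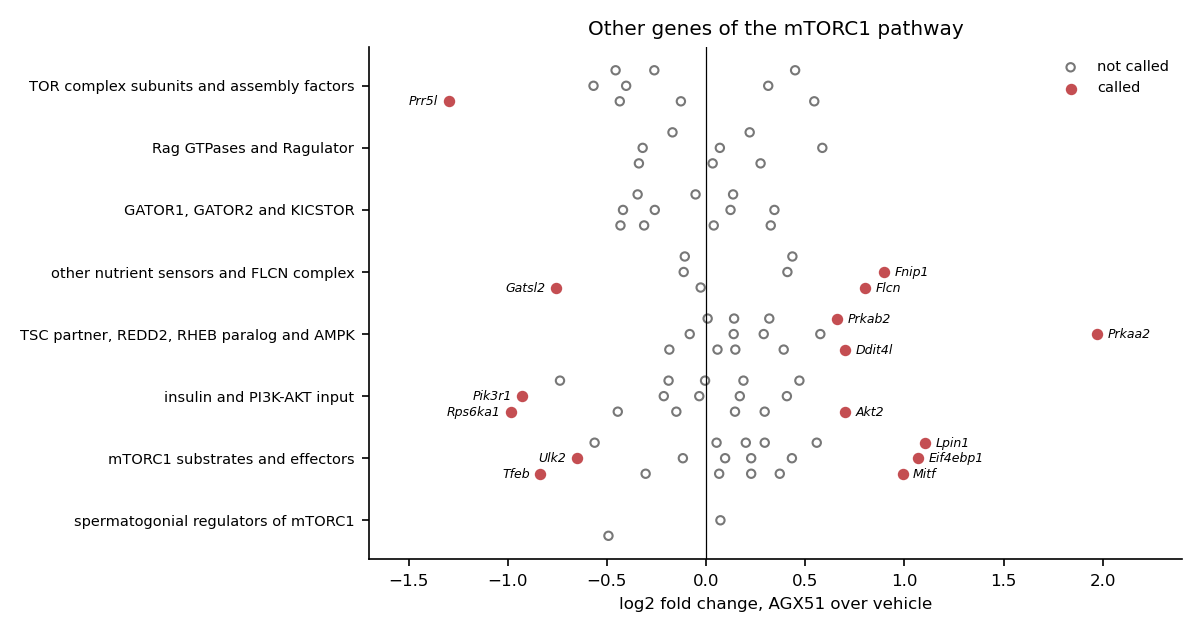
Log2 fold change (x axis) of 87 other tested genes of the pathway, by list (y axis), with called genes filled and named. The 9 genes called higher and 6 called lower fall in 5 of 8 lists, and 0 of 8 Rag and Ragulator and 0 of 11 GATOR and KICSTOR genes were called.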

How the data were processed

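RNA was sequenced from 4 vehicle and 4 AGX51 cultures of Aundiff, after poly(A) priming, template switching and tagmentation. Raw counts per gene are as deposited, from the authors' RNAsik pipeline. The submitters' processing notes list GRCm38 and, with no version, featureCounts, STAR, Salmon, limma and edgeR. CPM as deposited by the authors are counts scaled to the library total, and recomputed values differ by at most 0.0005. The 5 columns of the authors' own comparison were not used.

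Counts were fitted with edgeR 4.0.16 in R 4.3.3 (filterByExpr with a minimum count of 10 and a minimum total of 15, TMM scaling, quasi-likelihood test on group, Benjamini-Hochberg adjustment over 14428 genes, 2739 not tested). The adjusted p threshold was 0.05 and the fold threshold 1.5. Levels per kilobase and positions use GENCODE M21 exons on GRCm38, and promoters RefSeq on GRCm38.p6; all 10 genes matched both. Library totals and marker sums were compared by exact permutation tests that ignored the pairing of libraries by culture. Totals were 4303318 to 9586105 counts per library.

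The 10 genes and all lists were chosen with earlier results of these data known. Named genes are the 10 members, every called gene of a list, the gene with the smallest p in a list with none, and the 3 genes most alike in profile to *Ddit4*, *Sesn2*, *Sesn1*, *Rragc* and *Rragd*. *Rragb*, *Lamtor3*, *Tsc22d3*, *Tfe3*, *Irs1*, *Eif2ak3*, *Eif2ak4*, *Fnip2*, *Tti1*, *Rictor* and *Stradb* were named after their values were seen, and marker lists are given by their sums and counts. The markers *Gfra1*, *Sall4* and *Ddx4* are named for what the study reports of them. The replicate numbers pair the libraries, because a number stands for 1 culture letter in the labels. Deviations from the group means had a correlation of 0.113 to 0.444 within cultures and -0.287 to 0.0951 between them. Alternatives were DESeq2 1.42.0 (Wald test and size factors), limma-voom (limma 3.58.1), other scalings and filters, equal depth (4303318 counts), the culture block, the fibroblast covariate, other fold thresholds, and libraries left out. Equal depth was a single random thinning, so its values also carry the variation of that draw.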

Additional observations from a re-analysis of the deposited data

How the results depend on the processing

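Over 21 alternatives *Tsc1* and *Rragd* kept their direction, as did the other members apart from *Tsc2*, and none of the 10 genes was called lower. With the adjusted p alone, 5 members and 20 other pathway genes were called higher and 11 other pathway genes lower, against 2190 and 2211 of all tested genes. With a fold change above 2 these counts were 1, 3 and 1, against 486 and 626. Blocking by culture, which pairs the libraries, left 2 members called higher and 0 lower, with *Rragc* at 0.49, and changed no call of a member or of a called pathway gene; it added *Irs1* (-0.76) to the pathway genes called lower. Scaling by library totals gave 7 other pathway genes higher and 8 lower. *Ddit4*, *Mtor*, *Rheb*, *Tsc2* and *Rptor* were called under none of the 21 alternatives, which does not show that their levels were equal. Depth limits the rare genes most, *Prr5l* and *Mitf* among them, which had too few counts to be fitted at equal depth.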

Other observations

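For 5 of the genes, the 3 tested genes with the most similar profile over the 8 libraries were found, by the root mean square difference of gene-centred log2 CPM among the 13154 genes whose mean log2 CPM was 1 or more. *Sesn1* had the closest neighbours: *Ccpg1*, which encodes a receptor for autophagy of the endoplasmic reticulum, at 0.025, *Adprhl2* at 0.043 and *Abca5* at 0.050. *Ddit4* was followed by *Bud13* at 0.056, *Ppp5c* at 0.063 and *Arl2bp* at 0.068. *Sesn2* was followed by *Eef2k*, which encodes the kinase that restrains translation elongation and is in the list of mTORC1 effectors, at 0.091, *Sco2* at 0.096 and *Sil1* at 0.10. *Rragd* was followed by *Mrpl9* at 0.072, *Alg10b* at 0.084 and *Gm26609* at 0.089. The neighbours of *Rragc* were *Rcn3* at 0.073, *Lims2* at 0.086 and the extracellular matrix gene *Ecm1* at 0.091. These distances were not tested.

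Of the 10 genes, 4 lie on chromosome 4 (*Mtor*, *Sesn2*, *Rragc* and *Rragd*) and 2 on chromosome 10 (*Ddit4* and *Sesn1*).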
